A study of Homo sapiens with 18 samples.

Results

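The genes described here are 10 outputs and feedback regulators of the RAS-RAF-MEK-ERK (MAPK) pathway, taken as a list: DUSP4, DUSP5, DUSP6, SPRY2, SPRY4, SPRED1, SPRED2, ETV4, ETV5 and FOSL1. A row of the count table exists for 9 of them among 20705 gene symbols, and ETV4 was not analysed here. Poly-A RNA was sequenced in 18 libraries of 2 human melanoma cell lines, 2 libraries for each of 9 groups. CHL1 is wild type for BRAF and NRAS and carries mutant p53, and A375 carries an activating BRAF mutation and wild-type p53. The cells received the solvent DMSO, the CDK4/6 inhibitor palbociclib at 1 μM or the PRMT5 inhibitor GSK3326595 at 500 nM. CHL1 was sequenced as a control of 72 hours, after CDK4/6 inhibition (CDK4/6i) for 72 hours and for 6 days, and after PRMT5 inhibition (PRMT5i) for 72 hours, and A375 had the same groups plus a control of 6 days. CHL1 was grown in DMEM and A375 in RPMI, so that cell line and medium cannot be told apart. The libraries of 72 hours of the lines also bear different library-set names, so line and library set cannot be told apart there. Each line stands for its genotype alone, and the methods describe replicates grown for each condition without saying whether they were started independently, so that p-values measure the spread between these libraries, which may be technical.

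In this pathway growth factor receptors load RAS with GTP, RAS activates RAF, RAF phosphorylates MEK and MEK phosphorylates ERK, which enters the nucleus and switches on immediate and delayed early genes. Several of those genes code for proteins that act back on the pathway, so their mRNA is widely read as a gauge of ERK output. In melanoma an activating BRAF mutation drives MEK and ERK without a signal from RAS, and feedback gene mRNA is usually high in such cells. CDK4 and CDK6 are the cyclin D partners that phosphorylate RB and start the cell cycle, and PRMT5 is a methyltransferase that places symmetric dimethyl marks on arginines, among others of splicing factors. Whether either inhibitor moved the mRNA of the pathway's own regulators is the question of the comparisons with the controls.

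The list falls into 4 kinds of gene. DUSP4, DUSP5 and DUSP6 are dual-specificity phosphatases that remove phosphate from MAP kinases, DUSP4 and DUSP5 in the nucleus and DUSP6 in the cytoplasm with a preference for ERK. SPRY2 and SPRY4 are Sprouty proteins and SPRED1 and SPRED2 are their relatives, which act upstream, at the level of RAS and RAF, SPRED1 by bringing the RAS GTPase-activating protein NF1 to the membrane. ETV5 is an ETS transcription factor of the PEA3 group, and FOSL1 codes for FRA1, a partner of JUN in AP-1. On GRCh37, the build of the counts, DUSP5 lies on chromosome 10 at 112257665 to 112271291 (plus strand), DUSP6 on chromosome 12 at 89741012 to 89746278 (minus), SPRY2 on chromosome 13 at 80910111 to 80915261 (minus) and SPRY4 on chromosome 5 at 141689992 to 141706020 (minus). SPRED1 lies on chromosome 15 at 38545037 to 38649450 (plus), SPRED2 on chromosome 2 at 65537985 to 65659771 (minus), ETV5 on chromosome 3 at 185764103 to 185828107 (minus) and FOSL1 on chromosome 11 at 65659520 to 65668044 (minus). Reads were counted over the exons of each gene, so no isoform can be singled out.

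The RefSeq promoter table (build GRCh38.p14, 250 bases before to 50 after the annotated start) holds 5 of the genes. Of these, SPRY2 and SPRY4 are shown because they were the pair at a higher level in all A375 libraries of 6 days than in all of 72 hours, and DUSP6 because it is the phosphatase most specific for ERK. They are at chr13:80341077-80341376 (minus strand), chr5:142324198-142324497 (minus strand) and chr12:89352452-89352751 (minus strand), and capitals mark the ETS core letters CCGGAA.
SPRY2: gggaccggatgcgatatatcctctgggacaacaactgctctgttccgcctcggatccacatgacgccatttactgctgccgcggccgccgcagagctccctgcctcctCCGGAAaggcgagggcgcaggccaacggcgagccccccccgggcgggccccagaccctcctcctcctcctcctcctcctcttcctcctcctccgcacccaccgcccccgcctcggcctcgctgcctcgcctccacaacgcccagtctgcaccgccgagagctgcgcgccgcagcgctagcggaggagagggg
SPRY4: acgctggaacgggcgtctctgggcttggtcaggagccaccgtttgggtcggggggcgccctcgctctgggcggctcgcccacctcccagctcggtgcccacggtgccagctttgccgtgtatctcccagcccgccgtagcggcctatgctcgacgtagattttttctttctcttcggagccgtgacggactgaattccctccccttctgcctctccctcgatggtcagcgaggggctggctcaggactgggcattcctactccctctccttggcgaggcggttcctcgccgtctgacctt
DUSP6: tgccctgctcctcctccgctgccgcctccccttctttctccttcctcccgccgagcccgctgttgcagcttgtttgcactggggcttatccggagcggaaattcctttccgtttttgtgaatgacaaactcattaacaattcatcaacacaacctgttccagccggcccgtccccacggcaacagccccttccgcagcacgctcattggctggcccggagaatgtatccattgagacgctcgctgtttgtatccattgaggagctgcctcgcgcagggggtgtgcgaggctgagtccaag
CCGGAA, searched on both strands, occurred once among the 5 promoters, at -142 from the start of SPRY2, against 17.63% of the 27305 promoters of the table. The AP-1 letters TGANTCA (7.76% of all promoters), the CRE letters TGACGTCA (1.98%), the CArG box of serum response factor (1.29%) and TATAAA (11.95%) occurred in none of the 5. These are descriptions of letters in a window and not sites.

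Levels are given as CPM, the count of a gene relative to the size of its library, with library sizes scaled by edgeR's trimmed mean of M-values (TMM). A gene is called where the adjusted p of edgeR's quasi-likelihood test, corrected over all 20705 genes by Benjamini and Hochberg, was under 0.05. The share of all genes called is given with each comparison, and for some other settings as a number of genes. The share of all genes whose libraries do not overlap was counted for the 2 times in A375 alone. Totals ran from 16213475 to 37424081 counts per library, and the lowest count of any of the 9 genes was 257 (FOSL1 in CHL1 under PRMT5i), so no member was thinly counted in any library. The melanocyte regulator MITF was at 63.8 to 211 CPM in both lines. Among the other lineage markers the pigment gene DCT was at 36.3 to 142 CPM in CHL1 and at most 1.79 in A375, and PMEL did not pass 3.25 CPM in any library. TYR did not pass 0.0717 CPM in CHL1 and 5.02 in A375, and TYRP1 4.01 and 0.772. Of the markers of dedifferentiated melanoma, AXL was at 26.7 to 41.9 CPM in CHL1 and 182 to 695 in A375. NGFR did not pass 1.76 CPM in CHL1 and 7.41 in A375. PTPRC, a leukocyte marker, was at 7.41 to 16.8 CPM in CHL1 and at most 0.588 in A375. EPCAM, an epithelial marker, did not pass 2.59 CPM in any library. SOX10, MLANA, SOX9 and PECAM1 were not analysed here.

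Some libraries stood apart by base composition. As the log2 difference between genes of the highest and the lowest GC decile, each relative to the median library of its line, the CHL1 PRMT5i libraries were at -2.82 and -2.18, the A375 controls of 6 days at -2.53 and -1.23, and all others between -0.19 and 0.55. Comparisons that use those 4 libraries are therefore also given after a GC correction, fitted on 13655 genes. The difference fell on whole groups, so base composition and group cannot be told apart. The correction would also take out any effect of a treatment that follows GC content. Which value lies nearer the response of a gene was not tested. For CHL1 under PRMT5i the median log2 fold change of all genes was -0.10 after the correction. The longest transcript of SPRED1 has the lowest GC content of the 9 genes, 36.3%, and those of FOSL1 (58.7%) and DUSP5 (55.8%) the highest, against 46.5% to 51.4% for the other 6. The A375 libraries of 72 hours and of 6 days also bear different library-set names, so that time and library set cannot be told apart in A375.

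In untreated cells 7 of the 9 genes were higher in A375 than in CHL1, among them the 3 DUSPs, both Sproutys and FOSL1. FOSL1 differed most, at 21.1 ± 4.24 CPM in CHL1 and 276 ± 6.61 CPM in A375 at 72 hours (SD, n = 2 libraries each), a fold of 13.1 (log2 3.71, SE 0.33, adjusted p = 1.51e-08). DUSP4 stood at 88.6 ± 6.44 and 667 ± 9.02 CPM, a fold of 7.53 (log2 2.91, SE 0.24, adjusted p = 5.24e-09). No library of the lower group reached the higher group for any of these 7 genes, and the share of all genes so separated was not counted. Of all genes, 29.6% were called higher and 29.3% lower in A375, so a called difference by itself was common between the lines. The A375 controls of 6 days bear the set name of the CHL1 libraries but carry the GC difference, and are uncorrected here. Their means were lower than at 72 hours for DUSP4, DUSP5 and FOSL1 (481, 34.1 and 139 CPM). They were higher for DUSP6, SPRY2, SPRY4 and SPRED1 (247, 224, 229 and 680 CPM). All 7 means stayed above those of the CHL1 controls.

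The other members higher in A375 differed less. SPRY2 was at 34.9 and 30.3 CPM in the CHL1 controls and at 117 and 124 in the A375 controls (log2 1.88, adjusted p = 5.45e-07). DUSP5 was at 19.6 ± 1.74 CPM in CHL1 and 61.7 ± 4.42 in A375 (log2 1.65, adjusted p = 2.50e-07), and DUSP6 at 60.4 ± 10.5 and 165 ± 8.77 (log2 1.45, adjusted p = 3.24e-05). SPRY4 was at 21.5 ± 1.21 and 58.5 ± 2.85 CPM (log2 1.44, adjusted p = 3.39e-05) and SPRED1 at 116 ± 3.05 and 239 ± 2.57 (log2 1.04, adjusted p = 0.00215). Neither SPRED2 nor ETV5 shared that direction. SPRED2 was at 124 and 133 CPM in CHL1 and 123 and 120.1 in A375 (log2 -0.08, 95% interval -0.39 to 0.22, adjusted p = 0.642), and ETV5, at 140.5 ± 1.39 in CHL1 and 105 ± 1.23 in A375, was lower in A375 (log2 -0.42, SE 0.15, adjusted p = 0.0265). The ETV5 call was lost on leaving out any of the 4 control libraries, with adjusted p from 0.0736 to 0.137.

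Levels of different genes can be compared only per length, here as CPM per kb of the longest annotated transcript. In untreated CHL1 the order was ETV5 (34.4 ± 0.34 CPM per kb), SPRED2 (28.5 ± 1.41), DUSP6 (16.7 ± 2.90), SPRED1 (16.0 ± 0.42), DUSP4 (16.0 ± 1.16), FOSL1 (12.4 ± 2.49), SPRY2 (12.0 ± 1.20), DUSP5 (7.93 ± 0.70) and SPRY4 (4.02 ± 0.23). Among neighbours in this order the ranges of mean ± SD overlapped for DUSP6 and SPRED1, SPRED1 and DUSP4, DUSP4 and FOSL1, and FOSL1 and SPRY2, and that of DUSP6 also reached FOSL1. In untreated A375 of 72 hours the top of the order was taken by FOSL1 (162 ± 3.88 CPM per kb) and DUSP4 (120.1 ± 1.62), followed by DUSP6 (45.5 ± 2.42), SPRY2 (44.3 ± 1.82), SPRED1 (32.9 ± 0.35), SPRED2 (26.9 ± 0.49), ETV5 (25.7 ± 0.30), DUSP5 (24.9 ± 1.79) and SPRY4 (10.9 ± 0.53). There the ranges of mean ± SD overlapped for DUSP6 and SPRY2 and for ETV5 and DUSP5, and that of DUSP5 also reached SPRED2.

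**Figure D1:**
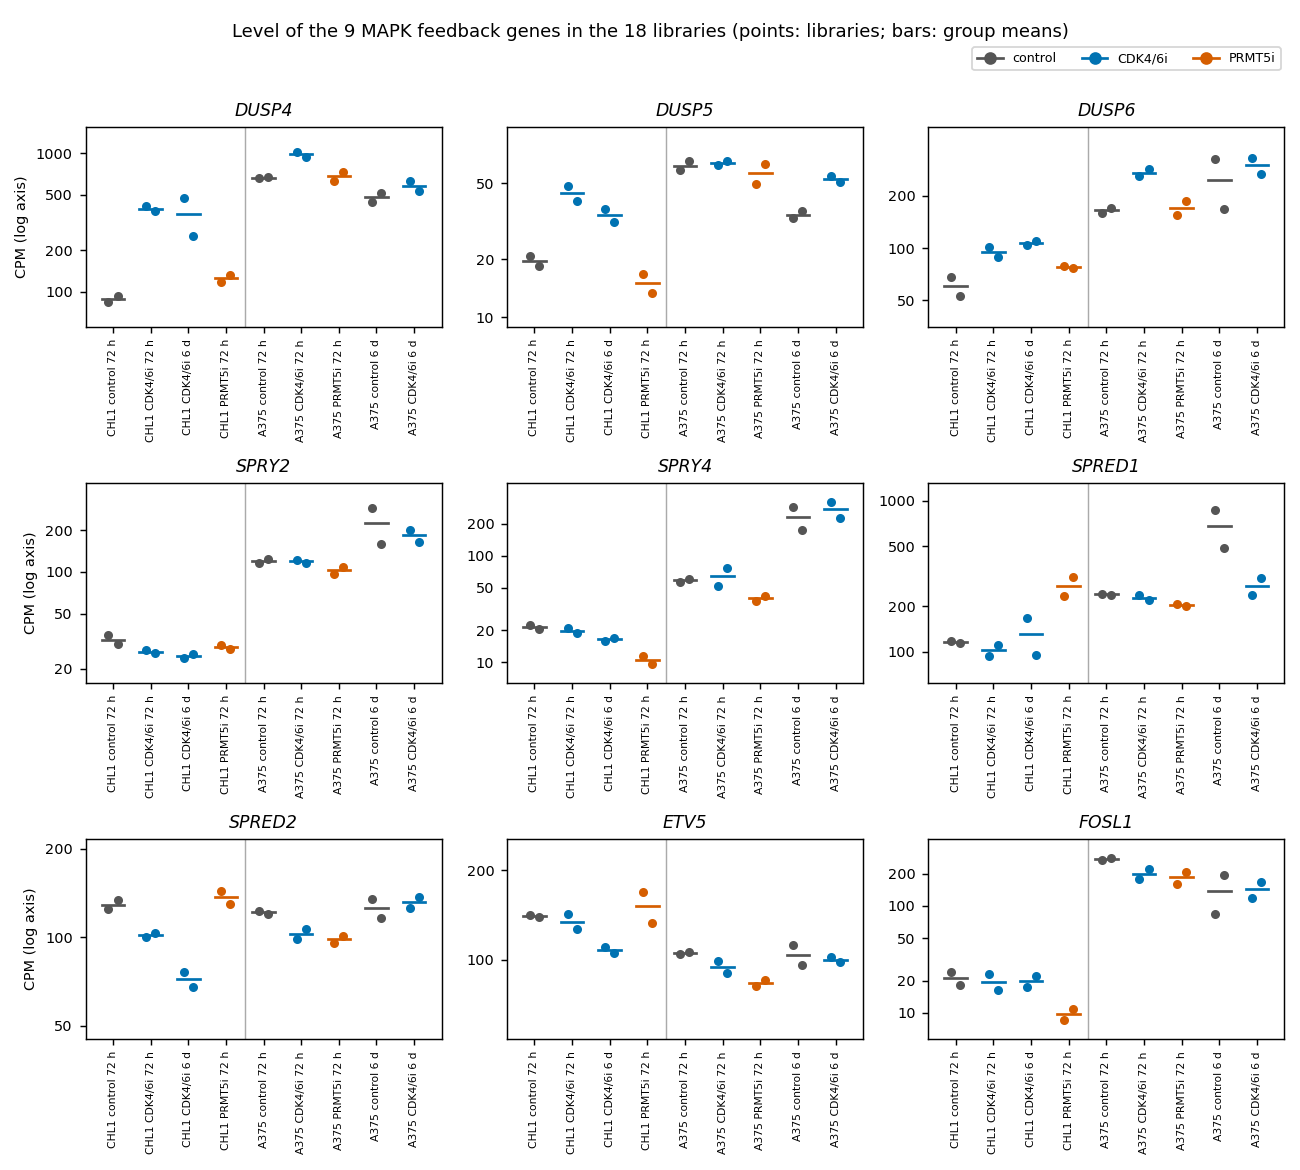
Level of each of the 9 genes in CPM (log axis) in the 18 libraries, by group; points are libraries, bars are group means, and the grey line separates CHL1 from A375. FOSL1 and DUSP4 show the widest step between the lines, the 3 DUSP panels show higher CHL1 points under CDK4/6i than in the control, and SPRED1 shows the A375 controls of 6 days at 872 and 488 CPM, above all other libraries.

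Under CDK4/6i the DUSP phosphatases rose in CHL1, and the Sprouty, SPRED1, ETV5 and FOSL1 mRNAs were not called at either time. After 72 hours 3 of the 9 members were called higher and 0 lower, where 2.27% of all genes were called higher and 2.72% lower. DUSP4, on chromosome 8 at 29190581 to 29208201 (minus strand, GRCh37), was at 84.1 and 93.2 CPM in the controls and at 413 and 385 CPM after 72 hours, without overlap. Its fold was 4.50 (log2 2.17, SE 0.25, 95% interval 1.61 to 2.72, adjusted p = 0.00149). DUSP5 was at 20.9 and 18.4 CPM in the controls and at 48.4 and 40.5 CPM with the inhibitor, a fold of 2.26 (log2 1.18, SE 0.19, adjusted p = 0.00569). DUSP6 was at 67.9 and 53.0 CPM against 102 and 88.7 CPM, a fold of 1.57 (log2 0.65, SE 0.16, adjusted p = 0.0430). The rise of DUSP4 was called whichever of the 4 libraries was left out. DUSP5 lost its call without control replicate 1, control replicate 2 or CDK4/6i replicate 1 (adjusted p = 0.0620, 0.117 and 0.0954), and DUSP6 without any of the 4 (adjusted p from 0.122 to 0.419), where between 103 and 136 genes were called of 1032 with all libraries.

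After 6 days the DUSPs were again above the CHL1 control, and SPRED2 fell. In this comparison 3 members were called higher and 1 lower, against 8.83% of all genes higher and 7.8% lower. The treated libraries were of 6 days and the controls of 72 hours, the sole CHL1 controls, so treatment and time in culture cannot be told apart. DUSP4 was at 476 and 252 CPM, both above the controls but with a wide gap between the replicates (log2 2.06, SE 0.25, adjusted p = 0.000706). DUSP5 was at 36.4 and 31.5 CPM (log2 0.81, SE 0.19, adjusted p = 0.0129) and DUSP6 at 105 and 111 CPM (log2 0.85, SE 0.16, adjusted p = 0.00604). SPRED2, which restrains RAF activation, was at 76.0 and 67.8 CPM against 124 and 133 CPM in the controls (log2 -0.83, SE 0.15, adjusted p = 0.00446). Without control replicate 2 DUSP4 was the sole call (DUSP5 adjusted p = 0.146, DUSP6 0.107, SPRED2 0.0652), and DUSP5 was also lost without control replicate 1 (0.0687) or CDK4/6i replicate 1 (0.0707).

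SPRY2, SPRY4, SPRED1, ETV5 and FOSL1 were called in CHL1 under CDK4/6i at neither time, although SPRY2, SPRY4 and ETV5 had an unadjusted p under 0.05 at 6 days. SPRY2 was at 34.9 and 30.3 CPM in the controls, at 27.5 and 25.9 after 72 hours (log2 -0.29, adjusted p = 0.352) and at 23.9 and 25.5 after 6 days (log2 -0.39, adjusted p = 0.125), so that all 4 treated libraries lay below both controls. SPRY4 was at 22.4 and 20.7 CPM in the controls, at 21.1 and 18.6 after 72 hours (log2 -0.12, adjusted p = 0.777) and at 15.7 and 16.9 after 6 days (log2 -0.39, adjusted p = 0.160). ETV5 was at 141 and 139 CPM, then 142 and 126 (log2 -0.07, adjusted p = 0.889), then 110.3 and 105 (log2 -0.37, adjusted p = 0.144). For FOSL1 the 3 groups overlapped, at 24.1 and 18.1, 22.8 and 16.4, and 17.5 and 22.0 CPM, with 95% intervals of the log2 difference from the control of -0.60 to 0.38 at 72 hours and -0.58 to 0.41 at 6 days. SPRED1 had 118 and 114 CPM in the controls, 93.6 and 111 after 72 hours (log2 -0.18, 95% interval -0.72 to 0.35) and 168 and 95.5 after 6 days (log2 0.20, 95% interval -0.33 to 0.74), so that the replicates of 6 days lay on either side of the controls. SPRED2 at 72 hours, with 99.8 and 103 CPM, lay below both controls without a call (log2 -0.35, adjusted p = 0.220).

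Between 72 hours and 6 days of CDK4/6i in CHL1, 0 of the 9 members were called with edgeR and 0 by DESeq2, with 1 (SPRED2) at an unadjusted p under 0.05. The shares of all genes were 0.0145% higher, which is 3 genes, and 0% lower. SPRED2 had the largest difference (log2 -0.48, 95% interval -0.81 to -0.15, adjusted p = 0.429), and DUSP5 was at 48.4 and 40.5 CPM at 72 hours and 36.4 and 31.5 at 6 days (log2 -0.37, 95% interval -0.77 to 0.03, adjusted p = 0.665). The log2 difference was -0.11 for DUSP4, 0.19 for DUSP6, -0.10 for SPRY2, -0.27 for SPRY4, 0.39 for SPRED1, -0.30 for ETV5 and 0.02 for FOSL1, with adjusted p of 0.720 or more.

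In A375 the same 72 hours of CDK4/6i gave 0 calls of 9 with edgeR, 2 members (DUSP4 and DUSP6) at an unadjusted p under 0.05 and 1 call (DUSP4) by DESeq2. The shares of all genes were 6.22% higher and 7.11% lower. DUSP4 was at 661 and 673 CPM in the controls and at 1029 and 940.0 CPM with the inhibitor (log2 0.50, SE 0.19, adjusted p = 0.0948). DUSP6 was at 159 and 171 CPM against 259.8 and 284 CPM (log2 0.66, SE 0.24, adjusted p = 0.0835). For both genes the treated libraries lay above the controls, and the share of all genes so separated was not counted. DUSP5 did not separate, at 58.5 and 64.8 CPM against 61.8 and 65.2 CPM (log2 -0.02, 95% interval -0.39 to 0.36, adjusted p = 0.983). FOSL1 was at 271 and 280.4 CPM against 177 and 219 CPM (log2 -0.54, SE 0.30, adjusted p = 0.273), and SPRED2 at 123 and 120.1 CPM against 98.7 and 107 CPM (log2 -0.30, SE 0.17, adjusted p = 0.257). SPRY2 was at 122 and 117 CPM, SPRY4 at 51.4 and 76.7 CPM, SPRED1 at 236 and 219 CPM and ETV5 at 98.6 and 90.2 CPM under the inhibitor, with log2 differences from -0.21 to 0.07 and adjusted p from 0.442 to 0.892.

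These adjusted p-values rest on a spread that the fit shares between the A375 libraries of 72 hours and those of 6 days, whose controls differed widely from each other. With the 6 libraries of 72 hours alone, an alternative chosen after seeing the data, 14.7% of all genes were called higher and 16.3% lower, and 4 members were called. DUSP4 (adjusted p = 0.00818) and DUSP6 (adjusted p = 0.000902) were higher, and SPRED2 (adjusted p = 0.0294) and FOSL1 (adjusted p = 0.00961) lower, with log2 fold changes within 0.01 of those above. Same-numbered libraries of those 6 correlated in their deviations by 0.13 to 0.38, a pairing drawn from these data. With the replicate number as a block, 20.6% of all genes were called higher and 21.7% lower, with p-values that rest on those 6 libraries alone. The same 4 members were then called, DUSP4 (adjusted p = 2.41e-05) and DUSP6 (4.24e-11) higher and SPRED2 (0.00151) and FOSL1 (8.60e-08) lower, and ETV5 was also lower (0.0330).

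The response of DUSP4 and DUSP5 to 72 hours of CDK4/6i differed between the lines by the test of the difference itself. The log2 response of DUSP4 in A375 minus that in CHL1 was -1.61 (SE 0.32, 95% interval -2.27 to -0.95, adjusted p = 0.0223), and that of DUSP5 was -1.14 (SE 0.25, 95% interval -1.65 to -0.62, adjusted p = 0.0404). For DUSP6 the difference was 0.06 (95% interval -0.62 to 0.74, adjusted p = 1.00). These 2 of 9 members compare with 0.401% of all genes whose difference was called higher and 0.241% lower. Both calls were lost on leaving out any of the 8 libraries compared, with adjusted p from 0.0694 to 0.144 for DUSP4 and from 0.0928 to 0.232 for DUSP5, while between 30 and 46 genes remained called of 133. DUSP4 in CHL1 under the inhibitor, at 399 ± 19.8 CPM, remained below its level in untreated A375, 667 ± 9.02 CPM. The differences of SPRY2, SPRY4, SPRED1, SPRED2, ETV5 and FOSL1 lay between -0.37 and 0.28 with adjusted p of 0.863 or more.

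**Figure D2:**
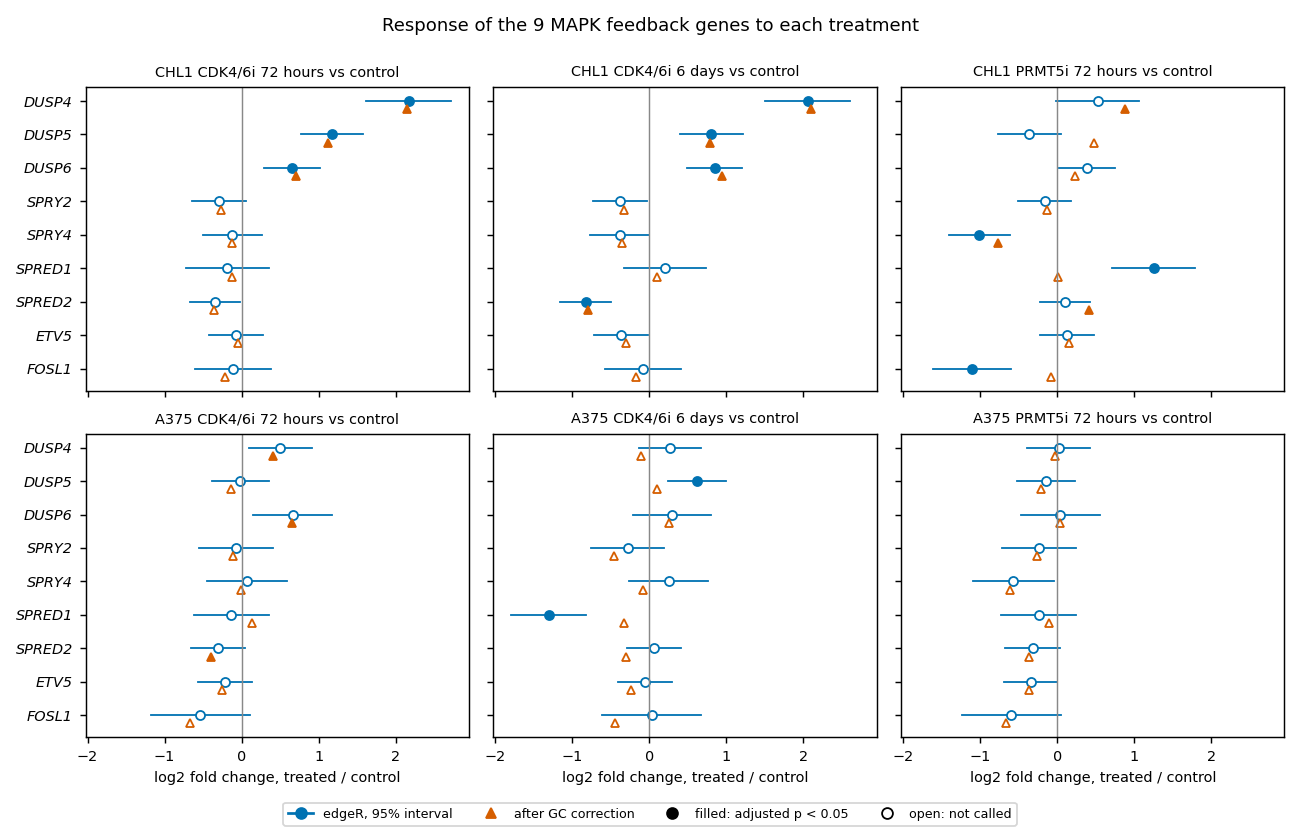
Log2 fold change (treated over control) of each gene in the 6 comparisons with a control; circles with bars are edgeR estimates with 95% intervals, triangles are the estimates after GC correction, and filled symbols are called at an adjusted p under 0.05. DUSP4, DUSP5 and DUSP6 lie to the right in both CHL1 panels of CDK4/6i with and without the correction, while the circles and triangles of SPRED1 part in CHL1 under PRMT5i and in A375 at 6 days.

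After 6 days of CDK4/6i in A375 DUSP5 rose and SPRED1 fell against the control of 6 days, and neither was called after the GC correction. These were 2 calls of 9, where 21.8% of all genes were called higher and 21.3% lower. SPRED1 was at 872 and 488 CPM in the controls and at 239 and 308 CPM with the inhibitor, and the treated libraries lay near the 241 and 237 CPM of the controls of 72 hours. Its log2 fold change was -1.31 (SE 0.23, adjusted p = 0.000439), and -0.33 after the correction (SE 0.13, adjusted p = 0.0645). DUSP5 was at 32.8 and 35.5 CPM against 54.4 and 50.8 CPM (log2 0.62, SE 0.18, adjusted p = 0.0105), and 0.10 after the correction (SE 0.13, adjusted p = 0.553). After the correction 0.0645 was the lowest adjusted p of any member, while 21.9% of all genes were called higher and 20.6% lower. Against the A375 controls of 72 hours DUSP5 was not higher (log2 -0.27), SPRED1 was not lower (log2 0.15), and DUSP6, SPRY4 and FOSL1 were called, with FOSL1 at -0.99. Of all 20705 genes 6459 were called there. That comparison mixes treatment with time and library set.

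For 4 other members, DUSP6, FOSL1, SPRY2 and DUSP4, the call at 6 days turned on which control library was used. DUSP6 was at 324 and 169 CPM in those controls and at 332 and 268 CPM with the inhibitor (log2 0.29, adjusted p = 0.348). Without control replicate 1 its log2 fold change was 0.80. FOSL1 was at 83.7 and 194 CPM against 118 and 169 CPM (log2 0.03, adjusted p = 0.953), SPRY2 at 290.0 and 158 CPM against 201 and 165 CPM (log2 -0.28, adjusted p = 0.329), and DUSP4 at 442 and 519 CPM against 631 and 531 CPM (log2 0.27, adjusted p = 0.272). Without control replicate 2 all 3 were called, FOSL1 at 0.80, SPRY2 at -0.63 and DUSP4 at 0.42. That fit, with a single control library, also called more of all genes than the fit with both controls. DUSP5 lost its call without CDK4/6i replicate 1 (adjusted p = 0.0736), and SPRED1 was called whichever of the 4 libraries was left out. SPRY4, at 283 and 175 CPM against 319 and 223, SPRED2, at 135 and 116 against 126 and 137, and ETV5, at 112 and 95.8 against 102 and 98.3, overlapped between the groups and were not called on leaving out any library. After the GC correction the log2 fold change was -0.11 for DUSP4, -0.08 for SPRY4 and -0.44 for FOSL1, each below 0 where the value without it was 0.03 to 0.27. It was 0.26 for DUSP6, -0.46 for SPRY2, -0.30 for SPRED2 and -0.23 for ETV5, and none of these 7 was called.

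The A375 response at 6 days minus that at 72 hours, each against its own control, gave 0 calls of 9 with edgeR, 2 members at an unadjusted p under 0.05 (DUSP5 and SPRED1) and 1 call (SPRED1) by DESeq2. The shares of all genes were 0.174% higher and 0.908% lower. The difference was -1.18 for SPRED1 (SE 0.32, adjusted p = 0.0842) and 0.64 for DUSP5 (SE 0.25, adjusted p = 0.183). After the GC correction, where 0.41% of all genes were called higher and 1.18% lower, SPRED1 was at -0.46 (adjusted p = 0.198) and DUSP5 at 0.24 (adjusted p = 0.495), and no member was called. The differences without and with the correction were -0.23 and -0.52 for DUSP4, -0.37 and -0.39 for DUSP6, -0.21 and -0.35 for SPRY2, and 0.18 and -0.08 for SPRY4. They were 0.37 and 0.09 for SPRED2, 0.16 and 0.02 for ETV5 and 0.57 and 0.23 for FOSL1. Without control replicate 2 of 6 days 5 members were called in the uncorrected fit, DUSP5, DUSP6, SPRY2, SPRED1 and FOSL1, among 7019 genes called.

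Levels in A375, here without a GC correction, also differed between the 4 libraries of 6 days and the 6 of 72 hours, treated or not. SPRY4 ran from 37.9 to 76.7 CPM in the libraries of 72 hours and from 175 to 319 CPM in those of 6 days. SPRY2 ran from 96.2 to 124 CPM at 72 hours and from 158 to 290.0 at 6 days. For both Sproutys all libraries of 6 days lay above all of 72 hours, as did those of 13.3% of all genes. DUSP4 ran from 634 to 1029 CPM at 72 hours and from 442 to 631 at 6 days, with all libraries of 6 days below, as for 13.1% of all genes.

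PRMT5i in CHL1 gave 3 calls of 9 members, SPRY4 and FOSL1 lower and SPRED1 higher, of which SPRY4 alone was also called after the GC correction. Of all genes, 26.4% were called higher and 27.6% lower, so the 3 calls of 9 are a smaller share than that of all genes. SPRY4 fell from 22.4 and 20.7 CPM to 11.4 and 9.64 CPM (log2 -1.01, SE 0.18, adjusted p = 0.000604), and its corrected value was -0.77 (SE 0.15, adjusted p = 0.00313). FOSL1 fell from 24.1 and 18.1 CPM to 8.62 and 10.8 CPM (log2 -1.10, SE 0.23, adjusted p = 0.00165), and stood at -0.08 after the correction (SE 0.19, adjusted p = 0.789). SPRED1 rose from 118 and 114 CPM to 232 and 313 CPM (log2 1.25, SE 0.25, adjusted p = 0.00120), and stood at 0.01 after the correction (SE 0.19, adjusted p = 0.989). These 2 genes are the richest and the poorest in GC of the 9.

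The correction also moved members that were not called without it. DUSP4, at 84.1 and 93.2 CPM in the controls and 118 and 133 under PRMT5i, went from 0.52 (adjusted p = 0.0917) to 0.88 (adjusted p = 0.0232) on the log2 scale. SPRED2, at 124 and 133 against 144 and 129.6 CPM, went from 0.10 (adjusted p = 0.599) to 0.41 (adjusted p = 0.0391), and DUSP5, at 20.9 and 18.4 against 16.7 and 13.4 CPM, from -0.36 (adjusted p = 0.122) to 0.48 (adjusted p = 0.0741). After the correction 11.1% of all genes were called higher and 19.8% lower, and 3 members were called, DUSP4 and SPRED2 higher and SPRY4 lower. DUSP6 was at 67.9 and 53.0 against 78.7 and 77.2 CPM (log2 0.39, adjusted p = 0.0650, corrected 0.23). SPRY2, at 34.9 and 30.3 against 29.6 and 27.7 CPM, and ETV5, at 141 and 139 against 169 and 133 CPM, were at -0.17 and 0.12 and were called in neither fit.

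**Figure D3:**
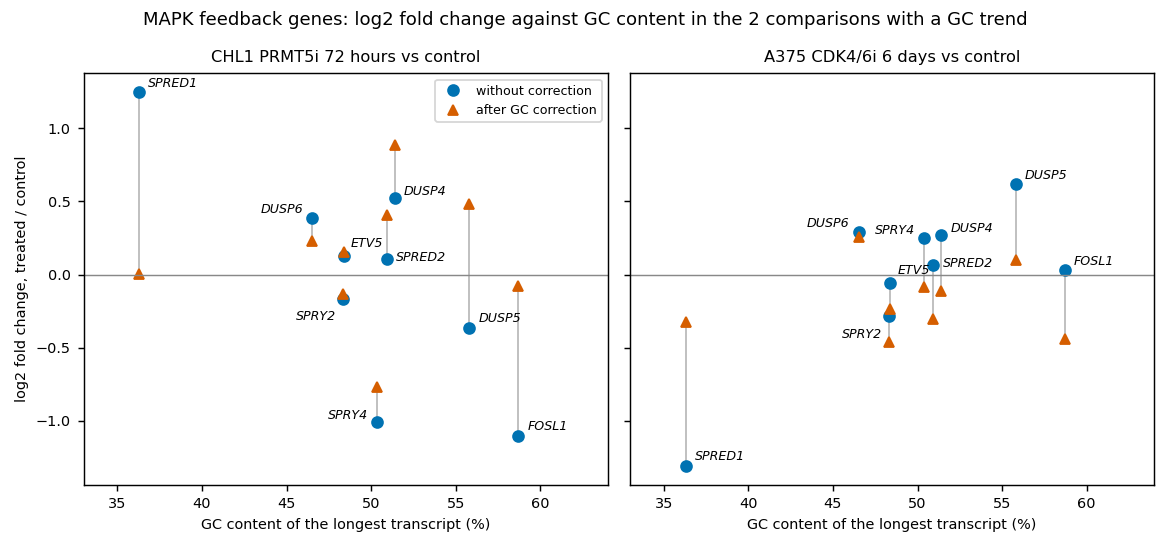
Log2 fold change of the 9 genes (treated over control) against the GC content of their longest transcript in percent, for CHL1 under PRMT5i (left) and A375 after 6 days of CDK4/6i (right); circles are values without and triangles with the GC correction, joined by grey lines. The longest lines belong to SPRED1 at 36.3% GC and to DUSP5 and FOSL1 at 55.8% and 58.7%, and SPRY4 in CHL1 stays at -0.77 after the correction.

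In A375 PRMT5i gave 0 calls of 9 with edgeR, 1 member (SPRY4) at an unadjusted p under 0.05 and 0 calls by DESeq2, where 0.874% of all genes were called higher and 1.74% lower. SPRY4 was at 56.5 and 60.5 CPM in the controls and 37.9 and 41.5 CPM under PRMT5i (log2 -0.57, SE 0.25, adjusted p = 0.261). FOSL1 was at 271 and 280.4 against 161 and 208 CPM (log2 -0.60, adjusted p = 0.357), ETV5 at 104 and 106 against 81.4 and 85.4 CPM (log2 -0.35, adjusted p = 0.314) and SPRED2 at 123 and 120.1 against 95.8 and 101 CPM (log2 -0.32, adjusted p = 0.365). For these 4 genes both treated libraries lay below both controls, and the share of all genes so separated was not counted. With the 6 libraries of 72 hours alone all 4 were called lower, SPRY4 (adjusted p = 0.0245), FOSL1 (0.0114), ETV5 (0.0284) and SPRED2 (0.0399), where 6.64% of all genes were called higher and 9.13% lower. The phosphatases did not separate, DUSP4 at 634 and 729.6 against 661 and 673 CPM, DUSP5 at 49.3 and 63.0 against 58.5 and 64.8, and DUSP6 at 155 and 188 against 159 and 171. SPRY2, at 96.2 and 109 CPM, and SPRED1, at 208 and 199.6 CPM, were below their controls and were called in neither of these fits. With the replicate number as a block in the 6 libraries, where 14.1% of all genes were called higher and 15.4% lower, all 6 genes that lay below their controls were called lower, SPRY4 (adjusted p = 5.38e-08), FOSL1 (7.44e-09), ETV5 (0.000507), SPRED2 (0.00133), SPRY2 (0.0209) and SPRED1 (0.0333), and the DUSPs were not.

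For the difference between the lines in the response to PRMT5i, SPRED1 was called without the GC correction and SPRED2 and ETV5 with it. In both fits these are a smaller share of the 9 members than the share of all genes called. SPRED1 was called (log2 response in A375 minus CHL1 -1.46, SE 0.37, adjusted p = 0.00410), against 22.1% of all genes called higher and 18.8% lower, and its difference was -0.09 after the GC correction (adjusted p = 0.831). After the correction, where 16.3% of all genes were called higher and 8.9% lower, SPRED2 was called (-0.39, adjusted p = 0.144 before and -0.74, adjusted p = 0.0102 after), as was ETV5 (-0.44, adjusted p = 0.119 before and -0.49, adjusted p = 0.0385 after). For SPRY4 the difference was 0.47 (95% interval -0.22 to 1.16, adjusted p = 0.276) and 0.19 after the correction. The other differences were called in neither fit and stood, before and after, at -0.47 and -0.88 for DUSP4, 0.25 and -0.66 for DUSP5, -0.31 and -0.15 for DUSP6, -0.04 and -0.09 for SPRY2 and 0.54 and -0.56 for FOSL1. The differences of DUSP5 and FOSL1 thus changed sign with the correction.

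With the inhibitors set against each other at 72 hours in CHL1, 6 of the 9 members were called, 4 lower and 2 higher under PRMT5i than under CDK4/6i. Of all genes, 28.4% were called higher and 29.4% lower, so a called difference by itself was common between these treatments. DUSP4 was at 118 and 133 CPM under PRMT5i and 413 and 385 under CDK4/6i (log2 -1.65, SE 0.25, adjusted p = 0.000167), and DUSP5 at 16.7 and 13.4 against 48.4 and 40.5 CPM (log2 -1.54, SE 0.19, adjusted p = 4.36e-05). After the GC correction both were called lower, at -1.26 (adjusted p = 0.00227) and -0.64 (adjusted p = 0.0164), as was SPRY4, at -0.89 (adjusted p = 0.00110) before and -0.64 (adjusted p = 0.00503) after. FOSL1 (a fold of 0.501, adjusted p = 0.00274) and SPRED1 (log2 1.43, adjusted p = 0.000407) were both at 0.14 on the log2 scale after it and were not called. DUSP6, at 78.7 and 77.2 against 102 and 88.7 CPM, was called lower after the correction alone (log2 -0.27, adjusted p = 0.184 before and -0.48, adjusted p = 0.0246 after). SPRY2 (0.12 before and 0.13 after) and ETV5 (0.19 before and 0.20 after) were called in neither fit. SPRED2 was higher under PRMT5i, at 0.45 (adjusted p = 0.0218) before and 0.77 (adjusted p = 0.000950) after the correction, and lost its uncorrected call without CDK4/6i replicate 1, CDK4/6i replicate 2 or PRMT5i replicate 1 (adjusted p = 0.176, 0.0928 and 0.0628). The correction thus left 5 members called, 4 lower and 1 higher, where 18% of all genes were called higher and 26.3% lower. The agents were given at different concentrations, 500 nM and 1 μM, so these values compare the treatments as applied.

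In A375 the same comparison gave 0 calls of 9 with edgeR, 3 members at an unadjusted p under 0.05 (DUSP4, DUSP6 and SPRY4) and 0 calls by DESeq2, where 2.37% of all genes were called higher and 3.09% lower. The log2 difference, PRMT5i minus CDK4/6i, was -0.49 for DUSP4 (SE 0.19, adjusted p = 0.155), -0.62 for DUSP6 (SE 0.24, adjusted p = 0.150) and -0.65 for SPRY4 (SE 0.25, adjusted p = 0.143). For each of the 3 genes both PRMT5i libraries lay below both CDK4/6i libraries, as they did for SPRY2, SPRED1 and ETV5. The share of all genes so separated was not counted. With the 6 libraries of 72 hours alone these 3 were called, DUSP4 (adjusted p = 0.0146), DUSP6 (adjusted p = 0.00241) and SPRY4 (adjusted p = 0.00965), where 11.4% of all genes were called higher and 10.7% lower. The same 3 were called with the replicate number as a block (adjusted p = 7.00e-05 for DUSP4, 7.96e-10 for DUSP6 and 1.50e-09 for SPRY4), where 18.4% of all genes were called higher and 16.3% lower. The log2 difference was -0.13 for DUSP5, -0.17 for SPRY2, -0.11 for SPRED1, -0.02 for SPRED2, -0.13 for ETV5 and -0.06 for FOSL1, with adjusted p of 0.698 or more.

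Other genes of the pathway were read from 3 lists, 17 other feedback inhibitors, 12 other ERK output genes and 18 genes of the core cascade with a row. Under CDK4/6i CCND1, which codes for cyclin D1, the partner of CDK4 and CDK6, rose in both lines at both times. It went from 319 ± 11.7 to 808 ± 11.8 CPM in CHL1 at 72 hours (log2 1.34, adjusted p = 0.00141) and was at 784 ± 17.7 CPM at 6 days (log2 1.31, adjusted p = 0.000533). In A375 it went from 381 ± 10.5 to 737 ± 15.3 CPM at 72 hours (log2 0.90, adjusted p = 0.00630) and from 384 ± 59.0 to 740.2 ± 53.4 at 6 days (log2 0.94, adjusted p = 0.00134, and 0.64 after the GC correction, adjusted p = 0.00386). DUSP3, another phosphatase that acts on ERK, rose in CHL1 at 72 hours (log2 0.68, adjusted p = 0.0233) and 6 days (log2 0.83, adjusted p = 0.00357). In A375 DUSP3 was also called higher at both times. There it went from 54.8 and 60.7 to 110 and 102 CPM at 72 hours. At 6 days it went from 29.7 and 41.0 to 70.2 and 62.9 CPM, and was also called after the GC correction. SPRY3, a further Sprouty, rose in CHL1 at 6 days (log2 0.96, adjusted p = 0.0101) and in A375 at 72 hours (log2 1.46, adjusted p = 0.00365) and 6 days (log2 1.22, adjusted p = 0.00157, and 1.63 after the GC correction, adjusted p = 0.000304). SPRY1 went the other way at 6 days, in CHL1 (log2 -0.92, adjusted p = 0.0326) and in A375 (log2 -1.84, adjusted p = 0.000522). Its A375 value after the GC correction was -1.71 (adjusted p = 0.00222). DUSP10 was lower in CHL1 at 6 days (log2 -0.70, adjusted p = 0.0300) and was called higher in A375 at both times.

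By count, the other feedback inhibitors under CDK4/6i had 1 higher and 1 lower of 17 in CHL1 at 72 hours, 3 and 2 at 6 days, 6 and 1 in A375 at 72 hours and 8 and 4 at 6 days. In A375 IL17RD, which holds back signalling from FGF receptors, was called higher at 72 hours (log2 1.70, adjusted p = 0.000401) and RASA2, a GTPase-activating protein for RAS, lower (log2 -0.89, adjusted p = 0.0216), and RASA2 was also lower in CHL1 at 72 hours (log2 -0.65, adjusted p = 0.0389). The output genes had 1 higher of 12 in CHL1 at 72 hours, 2 higher and 1 lower at 6 days, 1 higher in A375 at 72 hours and 1 higher and 4 lower at 6 days. EGR1, an immediate early gene, was lower in CHL1 at 6 days (5.39 ± 3.36 against 1.01 ± 0.62 CPM, log2 -2.36, adjusted p = 0.0108). The core cascade had 0 of 18 called in CHL1 at 72 hours with edgeR, and had 1 at an unadjusted p under 0.05 and 0 by DESeq2. It had 2 lower at 6 days, BRAF (log2 -0.64, adjusted p = 0.0169) and MAP2K1, which codes for MEK1 (log2 -0.51, adjusted p = 0.0474), 1 higher in A375 at 72 hours, the adaptor SHC1 (log2 0.73, adjusted p = 0.0262), and 7 higher and 6 lower in A375 at 6 days. The shares of all genes called are those given with each comparison above, 21.8% higher and 21.3% lower in A375 at 6 days. After the GC correction the A375 counts at 6 days were 5 higher and 5 lower of 17 feedback inhibitors, 2 and 3 of 12 output genes and 3 and 5 of 18 core genes. In that fit 21.9% of all genes were called higher and 20.6% lower.

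Under PRMT5i in CHL1 the lists had 5 higher and 8 lower of 17 feedback inhibitors, 2 and 5 of 12 output genes and 6 and 10 of 18 core genes, where 26.4% of all genes were called higher and 27.6% lower. After the GC correction the counts were 2 and 5, 3 and 1, and 1 and 5, where 11.1% of all genes were called higher and 19.8% lower. RASA1, another GTPase-activating protein for RAS, was at 1.46 on the log2 scale (adjusted p = 0.000104) and 0.97 after the correction (adjusted p = 0.00243), and MAPK3, which codes for ERK1, at -1.87 (adjusted p = 8.32e-05) and -0.70 (adjusted p = 0.00274). Under PRMT5i in A375 ERRFI1, an inhibitor of the EGF receptor, was the lower call of 17 feedback inhibitors (log2 -0.79, adjusted p = 0.0317), beside 1 higher. EGR1 was the sole call of 12 output genes and was higher (3.79 ± 0.38 against 16.0 ± 6.85 CPM, log2 2.06, adjusted p = 0.00716). Of the core genes 0 of 18 were called with edgeR, with 1 at an unadjusted p under 0.05 and 0 by DESeq2.

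**Figure D4:**
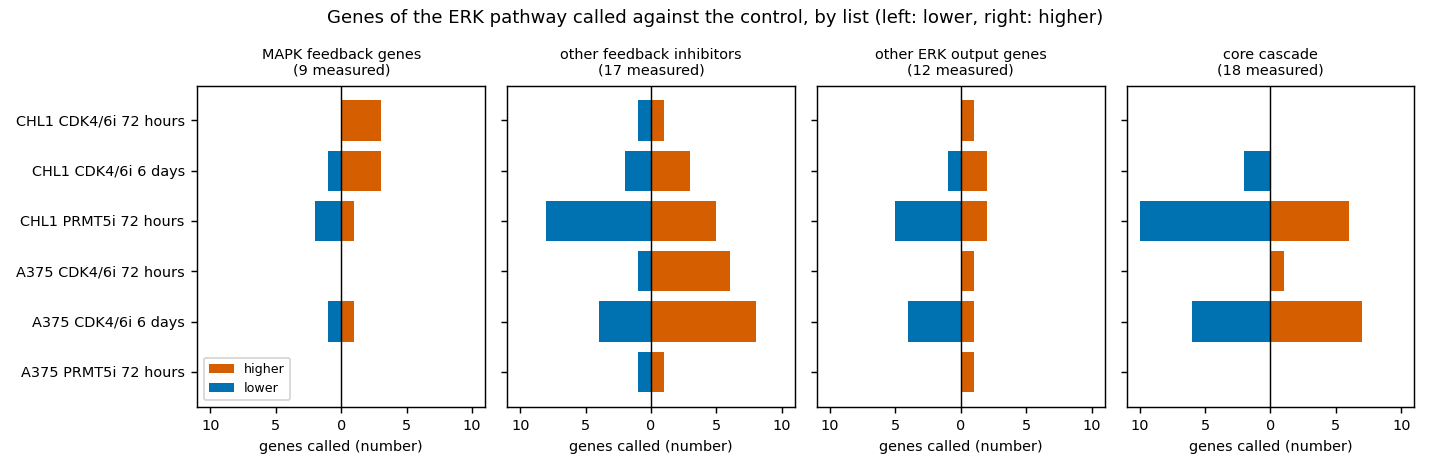
Number of genes called against the control (adjusted p under 0.05) in each list and comparison; bars to the right count genes called higher and bars to the left genes called lower. The MAPK feedback genes have 3 members called higher in CHL1 at each time of CDK4/6i, while the longest bars of the core cascade, 10 lower and 6 higher, belong to CHL1 under PRMT5i.

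Over the 9 group means, centred within each line, the members did not share a common pattern. The pairs most alike were SPRED2 and ETV5 (Pearson r = 0.93), SPRY2 and SPRY4 (r = 0.90) and DUSP4 and DUSP5 (r = 0.88), and DUSP5 and SPRED1 were least alike (r = -0.79). The points share libraries, and 2 of the groups carry the GC difference, so these values are descriptions over 9 points. Among 15649 other genes the closest to each member were SPTLC3 for DUSP4 (r = 0.98), GPR56 for DUSP5 (r = 0.97), DNAJC28 for DUSP6 (r = 0.99), AFAP1L2 for SPRY2 (r = 0.99) and XYLT1 for SPRY4 (r = 0.995). They were GPR180 for SPRED1 (r = 0.996), RP11-460N20.5 for SPRED2 (r = 0.99), DOCK5 for ETV5 (r = 0.97) and TMEM143 for FOSL1 (r = 0.99). A correlation over 0.9 was shared with SPRED1 by 10.6% of those genes and with DUSP4 by 0.109%.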

How the data were processed

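RNA of CHL1 and A375 cells was poly-A selected and sequenced in paired ends, 6 indexed libraries to a lane. Per the labels' processing notes the authors aligned reads with HISAT2 2.0.4 to GRCh37 and counted them with HTSeq (0.11.2 in the notes, while the methods name another version), and genes of low expression were removed with edgeR. Whether counting used strand is not given in the sources used here. The deposited values are whole-number counts per gene symbol whose totals differ between libraries, and were treated as raw counts although the table is named as normalised. Replicates of each group differed by more than sampling noise (chi-square per degree of freedom 7.60 to 118), so all were kept.

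From these counts, edgeR 4.0.16 (R 4.3.3) fitted TMM-scaled quasi-likelihood models to all 20705 genes, on the 8 CHL1 or the 10 A375 libraries for comparisons within a line and on all 18 for those between lines, in 13 comparisons. The SE is the log2 fold change divided by the root of F. The GC correction took from each library a loess curve (span 0.4) of its log2 deviation on transcript GC as an offset, for genes that averaged 1 CPM or more (87.2% of these had a GC value from GENCODE v44 lifted to GRCh37). Same-numbered libraries of 2 groups correlated in their deviations from -0.26 to 0.32 in CHL1, where numbers were not taken as pairs, and from 0.13 to 0.38 in the 3 pairs of A375 groups of 72 hours. There the fit with the replicate number as a block is given beside the results, a pairing drawn from the data, since no source says what a number marks. Other settings were DESeq2 1.42.0, other scalings and filters, other sets of libraries, the replicate block and leaving out each library. The fits were tested on simulated data.

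The members, the pathway lists and the rule for named genes were chosen with earlier results of these data known. All measured members are named in every comparison, and of each other list up to 2 rises and 2 falls with the largest size per comparison were eligible, at an average of 1 CPM or more and with no overlap between groups. DUSP3 and DUSP10 in A375 are given outside this rule. The gene most alike to each member was taken by Pearson correlation over 9 centred group means. The values of some genes of these lists are not reported here.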

Additional observations from a re-analysis of the deposited data

Results flagged for a closer look

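3 results were singled out because the effect of an inhibitor differed between the cell lines by the test of the difference itself. Under 72 hours of CDK4/6i the log2 response in A375 minus that in CHL1 was -1.61 for DUSP4 (edgeR adjusted p = 0.0223) and -1.14 for DUSP5 (adjusted p = 0.0404), and both calls were lost on leaving out any of the 8 libraries compared. For DUSP4 the treated libraries of both lines lay above their controls, and for DUSP5 those of CHL1 did while those of A375 overlapped theirs. Under PRMT5i the difference was -1.46 for SPRED1 (adjusted p = 0.00410), both treated libraries being above the controls in CHL1 and below them in A375, and it was -0.09 after the GC correction (adjusted p = 0.831).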

How the results depend on the processing

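Of 1791 recomputed log2 fold changes of the members, 1633 kept their direction and side of the threshold (92 of these changed sign without a call in either fit), 51 lost a call, 99 gained a call and 8 reversed. With the replicate block and GC correction together DUSP5 in CHL1 under PRMT5i was at 0.47, FOSL1 between the inhibitors in CHL1 at 0.15 (0.14 with the correction alone), and the PRMT5i difference between lines at -0.74 for DUSP5 and -0.67 for FOSL1. With the A375 control of 72 hours the values at 6 days were -0.27 for DUSP5, 0.15 for SPRED1 and -0.99 for FOSL1. The cause was not tested.

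Members called for A375 CDK4/6i at 72 hours were 0 as reported, 1 with DESeq2 or all 18 libraries, 3 with GC correction, 4 with the groups compared or the 6 libraries of 72 hours alone and 5 with the replicate block, corrected or not. For A375 PRMT5i they were 0, 6 with either block, 2 with the groups compared and 4 with the 6 libraries, and between the inhibitors in A375 0, 3 with the block, 4 with the corrected block, 3 with the groups compared and 3 with the 6 libraries. For CHL1 PRMT5i they were 3, and 5 with library totals or DESeq2. For A375 at 6 days they were 2, 0 with GC correction and 1 with the groups compared, and for its difference from 72 hours 0, 1 with DESeq2 and 2 with the control of 72 hours. For the PRMT5i difference between lines they were 1, 3 with DESeq2, 2 with GC correction, 3 with the block, 5 with the corrected block, 2 with the groups compared and 3 with the 14 numbered libraries. The counts of all genes called moved too. For A375 CDK4/6i at 72 hours they were 2761 of 20705 as reported. They were 6940 with the groups compared, 6424 with the 6 libraries and 8752 with the block. In that order they were 541, 1861, 3265 and 6113 for A375 PRMT5i. Between the inhibitors in A375 they were 1129, 4517, 4571 and 7167. For the A375 difference in time they were 224, 1146 with DESeq2 and 4802 with the control of 72 hours. For CHL1 PRMT5i they were 11176, 10986 with library totals and 10656 with DESeq2. For A375 at 6 days they were 8928, 5797 of 13655 with GC correction and 5862 with the groups compared. For the PRMT5i difference between lines they were 8466, 8698 with DESeq2, 3445 of 13655 with GC correction and 9837 with the block. There they were 4370 of 13655 with the corrected block, 9131 with the groups compared and 9573 with the 14 numbered libraries. Under the block DUSP6 in CHL1 at 72 hours was not called (adjusted p = 0.0527). No source says that a number marks a shared culture, and A375 libraries of 6 days carry no numbers in their labels, so no blocked fit was made there.

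Leaving out 1 library gave 1 to 2 members for CHL1 CDK4/6i at 72 hours, 1 to 4 at 6 days, 3 to 4 for CHL1 PRMT5i, 1 to 5 for A375 at 6 days, 5 to 6 between the inhibitors in CHL1, 0 to 5 for the A375 difference in time, 0 for the CDK4/6i difference between lines, 1 to 2 for the PRMT5i difference, 7 for the controls and 0 for the other 4 comparisons. A group left with 1 library was assumed to vary like the others. DUSP5 was called in CHL1 under PRMT5i without PRMT5i replicate 1 (-0.53, adjusted p = 0.0417), and ETV5 in the PRMT5i difference without CHL1 PRMT5i replicate 2 (-0.66, 0.0236).

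Across the settings that kept every replicate, the counts of all genes called went from 1032 to 4202 with the groups compared for CHL1 CDK4/6i at 72 hours, 3443 (highest 4964) at 6 days, 11176 to 4120 with the corrected block for CHL1 PRMT5i, 2761 to 8752 with the block for A375 CDK4/6i at 72 hours, 8928 to 5797 with GC correction at 6 days, 541 (319 to 6113) for A375 PRMT5i, 11958 to 5980 and 1129 (713 to 7167) between the inhibitors in CHL1 and A375, 3 (0 to 63) for the CHL1 times, 224 (96 to 4802) for the A375 difference in time, 133 to 1797 and 8466 to 3445 for the CDK4/6i and PRMT5i differences between lines and 12205 (8543 to 13959) for the controls. With library totals alone the median of all genes shifted by -0.30 in CHL1 PRMT5i, -0.32 between the inhibitors in CHL1, 0.27 in A375 at 6 days, 0.26 in the A375 difference in time, 0.35 in the PRMT5i difference and 0.17 in the controls, and the share of calls that were higher went from 48.9% to 34.2%, 49.1% to 36.4%, 50.5% to 62.4%, 16.1% to 27.1% and 54.1% to 66.1% in the first 5. In the CDK4/6i difference between lines it went from 62.4% to 51.6%.

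Each group had 2 libraries, and the lowest count of a member in a library was 257, of FOSL1.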
